A study of Rattus norvegicus with 20 samples.

Results

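The comparison of stimulated with sham-operated rats at 7 d covered 10 of the 20 arrays of the series, 5 from each group, chosen by their labels of treatment and time. The stimulated animals were adult male Sprague-Dawley rats with an electrode in the left lateral amygdala, through which current was passed to evoke status epilepticus (SE), a prolonged seizure that was later stopped with diazepam. The paper states that all stimulated animals it included developed spontaneous seizures, though its range for the 7 d group includes none. The sham-operated rats carried the same electrodes but received no current. The stimulation, the evoked seizure and later spontaneous seizures therefore cannot be told apart. Whether the sham-operated rats were given diazepam is not stated in the sources used here. RNA came from the left dentate gyrus, dissected as whole tissue and hybridised to 1 Affymetrix array per rat. The remaining 10 arrays, 5 of stimulated and 5 of sham-operated rats at 30 d, shared the model's estimate of spread and are used here to set the 7 d changes beside later ones. Levels are log2 array intensities as deposited, and a change is the stimulated mean minus the sham mean, so that 1 unit is a doubling. A gene is said to have risen or fallen where limma's moderated test gave a Benjamini-Hochberg adjusted p under 0.05 over all 15800 probe sets tested, which stood for 14586 genes.

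The dentate gyrus receives the main cortical input to the hippocampus, and its granule cells pass it on through mossy fibres that release glutamate together with zinc. Granule cells hold firing low through GABA receptors, potassium channels and receptors that couple to inhibitory G proteins, and they clear calcium through pumps in the plasma membrane and stores in the endoplasmic reticulum. Prolonged seizures in this tissue are known for gliosis, loss of hilar neurons, sprouting of mossy fibres and altered birth of new granule cells. Microglial, astrocytic, complement and interferon genes are treated here only as values that moved beside the rest, and the genes described are those of signalling, metabolism, transcription and cell structure.

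The 19 granule cell markers measured averaged between 7.86 and 7.97 in stimulated rats and between 7.90 and 8.07 in sham-operated rats. Fam163b, a bright marker, averaged 10.30 in stimulated and 10.17 in sham-operated rats. The series holds no array of another tissue, so these levels do not test the labelled tissue. Of the 19, 3 rose (15.8%, against 4.11% of all genes) and 2 fell (10.5%, against 2.45%), with changes from −0.95 (Plk5) to 0.51 (Dsp). With 1 rat left out 1 to 2 rose and 0 to 3 fell, 0 of them without stimulated rat 5. Among the bright markers Sema5a had a change of 0.19 (adjusted p = 0.0495), a call lost without any rat but stimulated rat 5 or sham rat 1 (0.067 to 0.129). C1ql2 had 8.81 in stimulated rat 5 against 9.61 to 9.67 in the other 4 stimulated rats and 9.48 to 9.85 in sham-operated rats. Of 76 microglial and macrophage markers 55 rose and 1 fell, and their mean per rat lay between 5.81 and 6.54 in stimulated rats, against 5.34 to 5.42 in sham-operated rats. Of 36 markers of reactive astrocytes 20 rose and 0 fell with limma (0 also at an unadjusted p under 0.05, and 15 called in all by the unmoderated test), and their mean lay between 5.79 and 6.33 in stimulated rats, against 5.49 to 5.59 in sham-operated rats. Stimulated rat 5 had the highest microglial mean and the lowest mean correlation with the other arrays at 7 d, 0.9860 against 0.9899 to 0.9929 for the other rats. Wfs1, a marker of CA1 pyramidal cells, ranged from 7.03 to 8.14 in stimulated rats and from 7.01 to 7.79 in sham-operated rats, highest in stimulated rat 5 and sham rat 3. Of 20 markers of meninges and fibroblasts 2 rose (10%) and 1 fell (5%), with 8 higher and 1 lower at an unadjusted p under 0.05. Their mean lay between 5.64 and 5.90 in stimulated rats, against 5.50 to 5.74 in sham-operated rats. Of 4 red blood cell markers 1 fell, Hbb by 0.70 (adjusted p = 0.0356), with 3 lower and 0 higher at an unadjusted p under 0.05, and their mean lay between 5.53 and 6.16 in stimulated rats, against 5.93 to 6.44 in sham-operated rats. That call was lost without any 1 of 7 rats, stimulated rats 1, 3, 4 and 5 and sham rats 1, 2 and 4 (adjusted p 0.0585 to 0.11). The part of these markers in the changes below was not tested, and in whole tissue fewer cells of a type and less RNA per cell cannot be told apart. No label names a batch or says whether the groups were handled together, so a difference in handling cannot be told apart from the stimulation. The p-values rest on a spread between rats estimated from all 20 arrays at both times.

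At 7 d, 389 probe sets of 358 genes fell (2.46% of those tested) and 635 of 599 genes rose (4.02%). The falls were the smaller changes, with a median of −0.32 against 0.40 for the rises, and 62 probe sets fell by at least 0.5 where 215 rose by that much. In 264 of the falls and 469 of the rises the 5 stimulated rats did not overlap the 5 sham-operated rats. Selection by a small p on the same rats favours this, so the 2 counts are descriptions. Of all probe sets, called or not, 2.44% lay apart downward and 3.81% upward. At an unadjusted p under 0.05, 8.16% of genes were lower and 10.1% higher. Genes that fell were brighter, with a median log2 level of 7.27 against 6.07 for those that rose and 6.40 for all. Of the 599 genes that rose (4.11% of all genes), 114 were among the 287 measured genes of the microglial, complement, interferon, cytokine and reactive astrocyte lists. The other 485 were on none of these lists, but some, such as Adgre1, are known from macrophages. When each array was centred on its median, the split turned to 503 probe sets higher and 576 lower, so that 46.6% of the calls were rises against 62.0% as deposited, and the counts of rises and falls cannot be ranked. Without stimulated rat 5 the falls dropped to 242 probe sets.

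The deepest falls included genes that remove calcium from the cytosol or release it from stores. Atp2b4, a plasma membrane pump that expels calcium (chr13:47708157-47807389 in GRCr8), had log2 levels of 7.60, 7.76, 7.41, 7.82 and 7.22 in stimulated rats, against 8.61, 8.73, 8.84, 8.82 and 8.62 in sham-operated rats. All 5 stimulated rats lay well below all 5 sham-operated rats, and the change was −1.16 ± 0.17 (standard error of the fit, as after every ± below, n = 5 each, adjusted p = 0.000342). Ryr1, the calcium release channel of the endoplasmic reticulum best known from skeletal muscle (chr1:93420078-93551305), had 6.24, 5.95, 6.22, 6.14 and 6.14 in stimulated rats, against 6.86, 6.83, 6.90, 6.61 and 7.05 in sham-operated rats. Its groups were also apart and tight, with a change of −0.71 ± 0.07 and an adjusted p of 5.15e-06. The inositol trisphosphate receptors, which open the same stores, split: Itpr1 fell by 0.47 and Itpr2 rose by 0.34. The Itpr1 value is that of its brighter probe set, and averaged over its probe sets the change was −0.25 with an adjusted p of 0.0569.

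**Figure D1:**
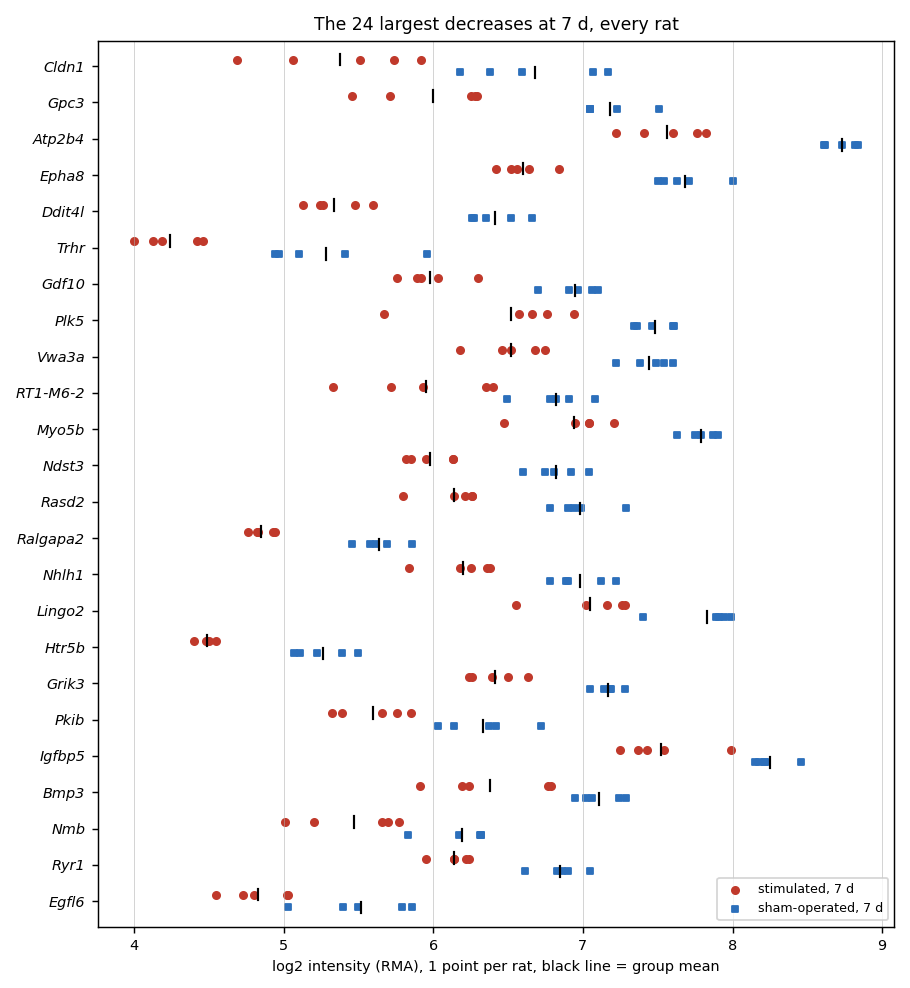
Log2 level (x axis) of the 24 genes with the deepest falls at 7 d, 1 point per rat, with the 5 stimulated rats (red circles) above the 5 sham-operated rats (blue squares) in each row and black lines at the group means. Every stimulated rat lies below every sham-operated rat in each of the 24, which is how they were chosen, and the changes range from −1.29 to −0.69.

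Among calmodulin kinase and calcineurin genes, the kinases Camkk2 and Camk4 and the kinase inhibitor Camk2n1 fell, and the regulators Rcan1 and Rcan2 rose. Of 26 genes of calmodulin kinases and calcineurin, 3 fell (11.5%, against 2.45% of all genes) and 2 rose (7.69%, against 4.11%), with a list median of −0.07. Camkk2, a kinase that activates other calmodulin kinases and AMP-activated kinase, fell by 0.43, with levels from 7.74 to 8.20 in stimulated rats against 8.29 to 8.63 in sham-operated rats. Camk2n1, an inhibitor protein of calmodulin kinase II, fell by 0.32 (adjusted p = 0.00174), and the kinase gene Camk4 fell by 0.31. The calcineurin regulators Rcan1 and Rcan2 rose by 0.30 and 0.31. The calcium buffer of granule cells, calbindin (Calb1), fell by 0.38, with 7.96 to 8.08 in stimulated rats against 8.27 to 8.61 in sham-operated rats. The calls of Camk4 (without stimulated rat 3, stimulated rat 5 or sham rat 2), Rcan2 (without sham rat 2) and Calb1 (without stimulated rat 5 or sham rat 4) were lost, with adjusted p between 0.0523 and 0.0821. With the 7 d arrays alone Rcan1 lost its call too (adjusted p = 0.058).

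Some receptor genes for serotonin and for peptides fell, while their list as a whole did not shift. Htr5b, a serotonin receptor gene functional in rodents (chr13:35239662-35252586), had 4.40, 4.48, 4.49, 4.55 and 4.50 in stimulated rats, against 5.11, 5.22, 5.50, 5.39 and 5.07 in sham-operated rats. The stimulated values spanned less than those of the sham-operated rats and lay below them all, a change of −0.77 ± 0.11 (adjusted p = 0.000186). Htr5b is dim, where the median level of all probe sets was 6.40 and the floor on dim values was 3.69. Htr1a, the inhibitory serotonin 1A receptor (chr2:38427169-38431733), had 7.92, 8.16, 7.92, 8.30 and 8.15 in stimulated rats, against 8.50, 8.48, 8.77, 8.78 and 8.62 in sham-operated rats. It fell by 0.54 (adjusted p = 0.000471), again without overlap, and Htr1f, another inhibitory serotonin receptor, fell by 0.51. Trhr, the receptor for thyrotropin-releasing hormone, which is not on the list, fell by 1.04, with 4.0 to 4.46 in stimulated rats against 4.94 to 5.96 in sham-operated rats. Of the 70 measured receptors for amines, acetylcholine and peptides 5 fell (7.14%, against 2.45% of all genes) and 1 rose (1.43%, against 4.11%). The list median was 0.00, and 48.6% had a negative change, against 49.2% of all genes. At an unadjusted p under 0.05, 7 were higher and 9 lower. The other falls were Cckbr for cholecystokinin, with a change of −0.43, and Sstr4 for somatostatin, with −0.36. Htr1f lost its call without stimulated rat 5 or sham rat 4 (adjusted p 0.0575 to 0.0596). Cckbr lost its call without stimulated rat 3 or 5 or sham rat 1, 4 or 5 (0.054 to 0.0887), and Sstr4 without stimulated rat 2 or 5 or sham rat 2, 3 or 4 (0.0537 to 0.0992).

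Npy2r, the Y2 receptor through which neuropeptide Y lowers transmitter release (chr2:170200027-170210286), was the only receptor of the 70 that rose. It had 7.45, 7.92, 7.87, 7.81 and 7.34 in stimulated rats, against 6.63, 7.05, 6.58, 7.13 and 6.79 in sham-operated rats. The groups did not overlap, and the rise was 0.84 ± 0.12 (adjusted p = 0.000236). Outside this list, Grik3, a kainate receptor subunit, fell by 0.76, with 6.24 to 6.63 in stimulated rats against 7.05 to 7.28 in sham-operated rats. Gabrd, the delta subunit of the extrasynaptic GABA receptors of granule cells, fell by 0.54, with 5.89 to 6.37 in stimulated rats against 6.58 to 6.80 in sham-operated rats. Kcnh5, a voltage-gated potassium channel, fell by 0.64 (adjusted p = 9.62e-05). Gabrd and Kcnh5 were named after their values were seen.

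Downstream of the receptors, small changes were found among the genes that make, break and sense cyclic nucleotides. Of 67 measured, 4 fell (5.97%) and 1 rose (1.49%), 73.1% had a negative change and the median was −0.05, against 49.2% negative and a median of 0.00 over all genes. Pde7b, a phosphodiesterase specific for cyclic AMP, fell by 0.36 (adjusted p = 0.00622), and Adcy8, an adenylyl cyclase driven by calcium, fell by 0.47. Adcy7, another cyclase, rose by 0.35. Pkib, an inhibitor of protein kinase A that the list does not hold, fell by 0.74, with 5.32 to 5.85 in stimulated rats and 6.03 to 6.72 in sham-operated rats, while its other probe set fell by 0.20. Among 52 regulators of G protein signalling and G protein subunits, 3 fell and 3 rose (5.77% each, against 2.45% and 4.11% of all genes). The brightest to fall was Gng7, a gamma subunit, with 8.97 to 9.19 in stimulated rats against 9.34 to 9.53 in sham-operated rats and a change of −0.36. Gna15, an alpha subunit known from blood cells, rose by 0.67, and Rgs8 fell by 0.30. Adcy8 lost its call without stimulated rat 4, stimulated rat 5 or sham rat 2 (adjusted p 0.0512 to 0.0653), and Rgs8 without stimulated rat 5 (0.0563).

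Regulators of small GTPases and of protein kinase C gave a further group. Rasd2, a Ras-related GTPase also called Rhes (chr19:13600028-13610753), had 6.14, 6.26, 6.26, 6.21 and 5.80 in stimulated rats, against 6.94, 6.78, 7.29, 6.90 and 6.99 in sham-operated rats. Stimulated rat 5 was lowest, and the other 4 lay close together below all sham-operated rats, for a change of −0.84 ± 0.11 (adjusted p = 8e-05). Ralgapa2, a subunit of the complex that turns off Ral GTPases, fell by 0.79, with 4.76 to 4.94 in stimulated rats against 5.46 to 5.86 in sham-operated rats. That is the deepest of its 10 probe sets, whose changes ran from −0.79 to −0.18. Rasgrf2, an exchange factor that activates Ras on calcium entry, fell by 0.31 (adjusted p = 0.0056). Of 40 genes of protein kinase C, phospholipase C and diacylglycerol kinase, 6 rose (15%) and 2 fell (5%), including the kinase Prkcd, up by 0.64, and the diacylglycerol kinase Dgkd, up by 0.32. Prkcd stood highest in stimulated rat 5, at 6.36 against 5.58 to 5.67 in the other 4 stimulated rats and 5.0 to 5.26 in sham-operated rats. Among 66 genes of the MAP kinase pathway, 5 rose (7.58%, against 4.11% of all genes) and 3 fell (4.55%, against 2.45%). Mapk4 rose by 0.34, and Spred1, an inhibitor of Ras signalling to ERK, fell by 0.38. The call of Spred1 was lost without both stimulated rat 5 and sham rat 3 (adjusted p = 0.0739). Plk5, a polo-like kinase of brain, fell by 0.95, with 5.67 to 6.94 in stimulated rats against 7.34 to 7.61 in sham-operated rats. It was also on the granule cell list, and its call was lost without stimulated rat 5 (adjusted p = 0.0741) or sham rat 5 (0.051).

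**Figure D2:**
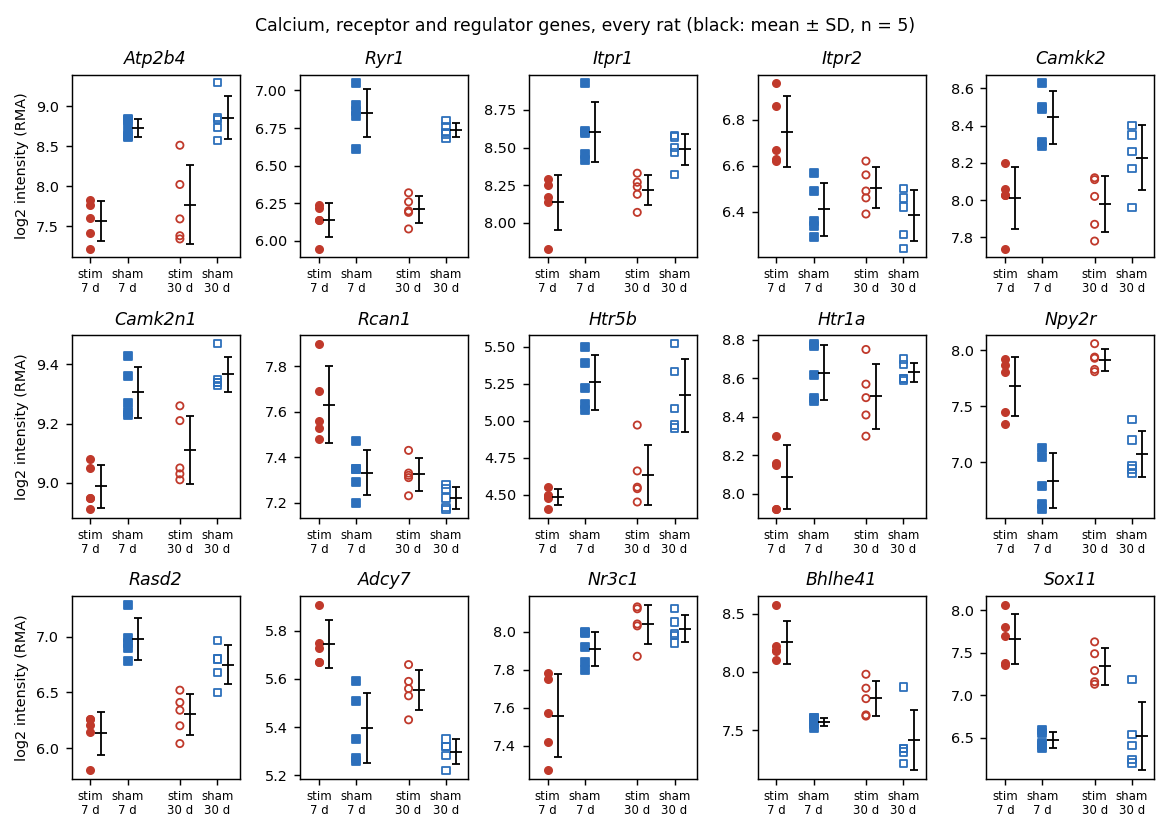
Log2 level of 15 genes of calcium handling, receptors, signalling and transcription (1 panel each), 1 point per rat, in stimulated (red) and sham-operated (blue) rats at 7 d (filled) and 30 d (open), with mean and SD (n = 5) in black. All 15 were chosen among genes called at 7 d, a choice that favours groups lying apart. At 7 d the groups are apart in all 15, closely so in Rcan1 and Nr3c1. Of all probe sets, 2.44% lay apart downward and 3.81% upward. Npy2r had 7.34 to 7.92 in stimulated rats against 6.58 to 7.13 in sham-operated rats.

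Several genes of secreted proteins were among the deepest falls. Gdf10, a ligand of the bone morphogenetic protein family, had 5.76 to 6.30 in stimulated rats against 6.70 to 7.10 in sham-operated rats, and its relative Bmp3 had 5.91 to 6.79 in stimulated rats against 6.95 to 7.29 in sham-operated rats. Neither overlapped between groups, and the changes were −0.97 ± 0.11 and −0.73 ± 0.14. Of the 39 measured genes of BMP and activin signalling, 4 rose (10.3%, against 4.11% of all genes) and 2 fell (5.13%, against 2.45%). The largest of those rises was that of Acvr1c, the activin receptor ALK7, with 7.43, 7.51, 7.51, 7.14 and 7.61 in stimulated rats against 6.17, 6.47, 6.21, 6.47 and 5.95 in sham-operated rats. It rose by 1.19 ± 0.16 (adjusted p = 9.62e-05), and the type II activin receptor, Acvr2a, fell by 0.30. Igfbp5, which binds insulin-like growth factors, fell by 0.73, with 7.25 to 7.99 in stimulated rats against 8.15 to 8.46 in sham-operated rats. The neuropeptide gene Nmb (neuromedin B), which was also on the list of CA3 and mossy cells, fell by 0.72, and the secreted protein gene Egfl6 fell by 0.69.

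A core protein and 2 enzymes of sulphated proteoglycans fell, while the matrix proteoglycan Bgn, described below, rose. No list of such genes was counted. Gpc3, a glypican that carries heparan sulphate (chrX:136789770-137157598), had 6.28, 6.29, 5.46, 6.25 and 5.71 in stimulated rats, against 7.05, 7.05, 7.05, 7.51 and 7.23 in sham-operated rats. It fell by 1.18 ± 0.21 (adjusted p = 0.00143), and it was also on the list of meninges and fibroblasts, of whose 20 measured genes 2 rose and 1 fell. Ndst3, which sulphates heparan chains, fell by 0.85, with 5.82 to 6.13 in stimulated rats and 6.60 to 7.04 in sham-operated rats. Ust, which sulphates uronic acid in chondroitin and dermatan chains, fell by 0.56 and was named after its value was seen. Among 59 genes of Wnt signalling 2 rose (3.39%, against 4.11% of all genes) and 3 fell (5.08%, against 2.45%). The ligand gene Wnt10a rose by 0.46 (5.39 to 5.72 in stimulated rats against 5.0 to 5.24 in sham-operated rats). Wnt7b rose by 0.43 (7.48 to 7.72 in stimulated rats against 7.05 to 7.38 in sham-operated rats). The count of falls in the Wnt list was 0 to 2 with any 1 rat left out. FGF and EGF ligands and receptors, 37 measured, gave 0 calls with limma, 1 with the unmoderated test, and 2 higher and 3 lower at an unadjusted p under 0.05.

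Transcription factors changed in both directions. Of 151 homeobox, bHLH, Sox and Ets factors 5 rose and 5 fell (3.31% each), and of 270 zinc finger genes 6 rose and 6 fell (2.22% each). Over all genes 4.11% rose and 2.45% fell, and neither list lay far above those shares. Without stimulated rat 1 the first list held 9 rises and the zinc finger list 11 falls. Without sham rat 4 they held 3 falls and 2 rises, and the zinc finger rises were also 2 without sham rat 2 or 5 and 3 without sham rat 1 or stimulated rat 2. Sox11, a factor of immature neurons (chr6:49736773-49738794), had 7.36, 7.38, 8.07, 7.70 and 7.80 in stimulated rats, against 6.44, 6.56, 6.59, 6.38 and 6.41 in sham-operated rats. The sham-operated rats were tight and lay below every stimulated rat, and Sox11 rose by 1.19 ± 0.15 (adjusted p = 9.62e-05). Dcx, the microtubule protein of migrating young neurons, rose by 0.30, with 7.50 to 7.75 in stimulated rats against 7.23 to 7.39 in sham-operated rats. Nhlh1, a bHLH factor of developing neurons, fell by 0.78, with 5.84 to 6.38 in stimulated rats against 6.78 to 7.22 in sham-operated rats. The Ets factors Etv5 and Etv1 fell by 0.47 and 0.34 without overlap. Nr4a3, a nuclear receptor induced by activity, fell by 0.62, with 7.17 to 7.61 in stimulated rats against 7.97 to 8.16 in sham-operated rats. Arc, an activity-induced gene of synapses, had a change of −0.56, but its call was lost without stimulated rat 3, stimulated rat 5, sham rat 2 or sham rat 3 (adjusted p 0.0509 to 0.0629). Nr4a3 and Arc are on no list and were named after their values were seen.

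Of 96 chromatin enzymes 4 fell (4.17%, against 2.45% of all genes) and 1 rose (1.04%, against 4.11%). Ezh2, which methylates histone H3 to silence genes, rose by 0.31. Among the falls Brd9, a bromodomain subunit of a remodelling complex, changed by −0.27 and Smarca2, a remodelling ATPase, by −0.27. These 2 calls were lost without stimulated rat 5, and that of Smarca2 also without sham rat 2 or sham rat 4 (adjusted p 0.0525 for Brd9 and 0.0534 to 0.0673 for Smarca2). Without stimulated rat 5 the list held 0 falls, as it did without both that rat and sham rat 3, and without sham rat 4 it held 2.

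Genes of the glucocorticoid response and the circadian clock moved both ways. Of 25 measured, 4 fell (16%) and 3 rose (12%), against 2.45% and 4.11% of all genes. Nr3c1, the glucocorticoid receptor (chr18:31522783-31644508), had 7.75, 7.57, 7.78, 7.42 and 7.27 in stimulated rats, against 7.92, 7.99, 7.80, 8.0 and 7.84 in sham-operated rats. The nearest rats of the groups almost met but did not overlap, and the fall was 0.35 ± 0.08 (adjusted p = 0.00993). With the 7 d arrays fitted alone the adjusted p was 0.0569. Hlf, a PAR bZIP factor whose level follows the clock, fell by 0.56, with 5.37 to 5.68 in stimulated rats against 5.89 to 6.21 in sham-operated rats. Bhlhe41, a repressor within the clock, rose by 0.68, with 8.10 to 8.58 in stimulated rats and 7.52 to 7.60 in sham-operated rats, and was highest in stimulated rat 5. The hour at which each rat was taken is not given in the sources used here. The number of falls in the list ranged from 2 to 4 with single rats left out and was 1 without both stimulated rat 5 and sham rat 3. With that pair left out, the rats with the highest Wfs1 of their groups, Hlf had an adjusted p of 0.0528.

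**Figure D3:**
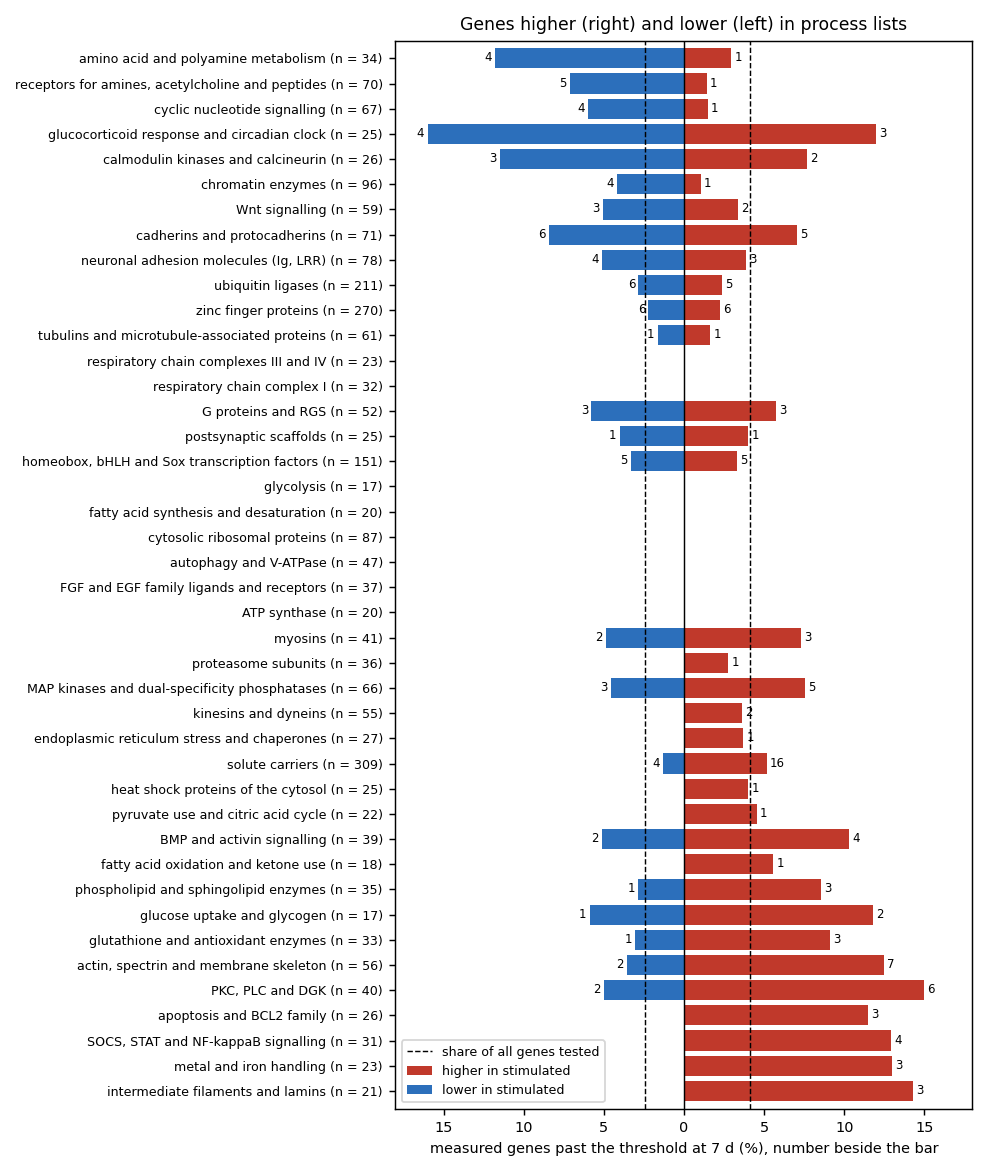
Share of measured genes (x axis, in %) that rose (red, right) or fell (blue, left) at 7 d in each process list drawn, with the number of genes beside the bar and the shares of all genes, 4.11% and 2.45%, as dashed lines. The glucocorticoid and clock list reaches 16% lower and 12% higher, and the lists of the respiratory chain, ATP synthase, glycolysis and ribosomal proteins have no bar.

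Among cell structure genes myosins moved in both directions, and several proteins that cap, crosslink or anchor actin rose. Of 234 genes of actin, tubulin, intermediate filament, myosin, kinesin and dynein lists, 16 rose (6.84%, against 4.11% of all genes) and 5 fell (2.14%, against 2.45%). Of the 16, 13 were on no immune or astrocyte list. Myo5b, a motor that moves recycling endosomes, had 7.21, 7.04, 6.95, 7.04 and 6.47 in stimulated rats, against 7.75, 7.79, 7.90, 7.87 and 7.63 in sham-operated rats. It fell by 0.85 ± 0.11 (adjusted p = 7.03e-05), and the neuronal myosin Myo16 fell by 0.36 (6.46 to 6.84 in stimulated rats against 7.00 to 7.08 in sham-operated rats). Of the 41 myosins 3 rose, among them Myo1f, known from leukocytes, by 0.78 (5.50 to 6.25 in stimulated rats, highest in rat 5, against 4.85 to 5.19 in sham-operated rats) and Myo9b by 0.36. Tmod1, which caps the slow-growing ends of actin filaments, had 8.14, 8.20, 8.15, 8.19 and 8.05 in stimulated rats, against 7.67, 7.83, 7.67, 7.72 and 7.67 in sham-operated rats. The groups stood apart, and it rose by 0.43 ± 0.05 (adjusted p = 5.21e-05). Flnc, a filamin that crosslinks actin, rose by 0.84 (5.95 to 6.55 in stimulated rats against 5.37 to 5.64 in sham-operated rats). Msn (moesin) and Epb41 (protein 4.1), which tie actin to the membrane, rose by 0.75 and 0.44. Gfap, the astrocyte filament, rose by 1.13, with 10.31 to 11 in stimulated rats against 9.40 to 9.59 in sham-operated rats.

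Adhesion and guidance genes included the deepest of the 24 falls. Vwa3a, a gene with a von Willebrand factor A domain, and RT1-M6-2, a class Ib histocompatibility gene with near-identical paralogs and so uncertain, fell by 0.93 and 0.87 and belong to no list. Cldn1, a claudin of tight junctions, had 5.92, 5.74, 5.06, 5.51 and 4.69 in stimulated rats, against 6.38, 7.07, 6.59, 7.17 and 6.18 in sham-operated rats. It fell by 1.29 ± 0.22 (adjusted p = 0.000907), without overlap, and it was the 1 member called of 11 measured on the list of choroid plexus and ependyma. Epha8, a receptor for ephrin-A ligands (chr5:154449566-154476966), had 6.64, 6.56, 6.52, 6.42 and 6.84 in stimulated rats, against 7.71, 7.54, 7.50, 7.63 and 8.0 in sham-operated rats. It fell by 1.08 ± 0.11, among the smallest adjusted p of the falls at 5.15e-06. Efna5, an ephrin-A ligand, rose by 1.02 ± 0.15, with 5.96 to 6.82 in stimulated rats against 5.0 to 5.71 in sham-operated rats.

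Among 71 cadherins and protocadherins, 6 fell (8.45%, against 2.45% of all genes) and 5 rose (7.04%, against 4.11%). Cdh8, a classical cadherin of synapses, fell by 0.34, and Cdh12 by 0.65 with an overlap of the groups at 6.27 to 7.24 in stimulated rats against 6.95 to 7.92 in sham-operated rats. Cdh4 rose by 0.36, with 6.49 to 6.59 in stimulated rats against 6.08 to 6.36 in sham-operated rats, and the planar polarity cadherin Celsr1 rose by 0.42. The call of Cdh12 was lost without stimulated rat 5 (adjusted p = 0.0523). Of 78 neuronal adhesion molecules with immunoglobulin or leucine-rich repeats 4 fell (5.13%, against 2.45% of all genes) and 3 rose (3.85%, against 4.11%). Slitrk2 fell by 0.32, and Lingo2, outside that list, fell by 0.77, with 6.55 to 7.28 in stimulated rats against 7.40 to 7.99 in sham-operated rats. Sham rat 3 was the lowest of its group for Lingo2, at 7.40 where the next had 7.89.

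Energy metabolism showed few changes. Of 114 genes of glycolysis, pyruvate use and the citric acid cycle, the respiratory chain and ATP synthase, 1 rose (0.877%, against 4.11% of all genes) and 0 fell with limma, 1 was called by the unmoderated test, and 3 were higher and 7 lower at an unadjusted p under 0.05. Of the 114, 98.2% lay within 0.25 of no change, against 91.5% of all genes. The 75 genes of the respiratory chain and ATP synthase gave 0 calls with limma and 0 with the unmoderated test, with 1 higher and 4 lower at an unadjusted p under 0.05. Their median change was −0.00 and every one lay between −0.19 and 0.25. The 17 glycolysis genes gave 0 calls with both tests, 1 higher and 2 lower at an unadjusted p under 0.05, and a median of −0.03. Pdk4, the kinase that shuts pyruvate dehydrogenase, rose by 0.35 ± 0.07 (adjusted p = 0.00261), with 5.03 to 5.17 in stimulated rats against 4.60 to 4.90 in sham-operated rats.

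Protein synthesis, folding and turnover also gave few calls. Of 222 genes of cytosolic ribosomal proteins, proteasome, autophagy, endoplasmic reticulum stress and cytosolic heat shock lists, 3 rose (1.35%, against 4.11% of all genes) and 0 fell (against 2.45%) with limma. By the unmoderated test 0 were called, and 15 were higher and 14 lower at an unadjusted p under 0.05. The 3 were Hspb1 (0.89), Psmb9 (0.47) and Sdf2l1 (0.43), a small heat shock protein, an interferon-induced proteasome subunit and a chaperone cofactor. Hspb1 and Psmb9 were also on the immune or astrocyte lists, and each of the 3 calls was lost without at least 1 rat: Psmb9 without stimulated rat 5 (adjusted p = 0.0669), Hspb1 without sham rat 1 or sham rat 2 (0.0507 to 0.0557), and Sdf2l1 without stimulated rat 2 or 5 or sham rat 1, 2, 4 or 5 (0.0517 to 0.0986). The 87 ribosomal protein genes had a median of 0.04 and 0 calls with either test, with 3 higher and 2 lower at an unadjusted p under 0.05.

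Enzymes of other pathways changed singly. The lowest adjusted p of all rises was that of Phka2, a regulatory subunit of phosphorylase kinase, which starts glycogen breakdown (chrX:37979629-38102656). It had 7.28, 7.15, 7.26, 7.31 and 7.22 in stimulated rats, against 6.36, 6.57, 6.36, 6.48 and 6.43 in sham-operated rats. The groups lay far apart for their spread, and it rose by 0.81 ± 0.07 (adjusted p = 2.56e-06). Serinc2, a membrane protein of the serine incorporator family (chr5:147876477-147898797), rose by 1.01 ± 0.09 with the same adjusted p, with 8.81 to 9.10 in stimulated rats against 7.70 to 8.22 in sham-operated rats. Both were named after their values were seen, and neither is on a list. Slc2a13, a transporter of myo-inositol, fell by 0.40 (8.64 to 9.19 in stimulated rats against 9.34 to 9.44 in sham-operated rats), and Slc2a5, a fructose transporter found in microglia, rose by 1.06 with its highest level, 7.05, in stimulated rat 5.

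Amino acid, one-carbon and polyamine metabolism had 4 falls (11.8%, against 2.45% of all genes) and 1 rise (2.94%, against 4.11%) among 34 genes. Mthfd1l, the mitochondrial enzyme that releases formate from one-carbon units (chr1:42849424-43038313), had 6.31, 6.25, 6.06, 6.44 and 6.26 in stimulated rats, against 6.73, 6.86, 6.58, 6.68 and 6.60 in sham-operated rats. It fell by 0.43 ± 0.08 (adjusted p = 0.00168), without overlap. Arg1, arginase, fell by 0.50, with 5.28 to 5.64 in stimulated rats against 5.67 to 6.18 in sham-operated rats. Aldh5a1, which completes the breakdown of GABA, fell by 0.25, and Amd1, of polyamine synthesis, by 0.23. Gldc, the glycine decarboxylase of the glycine cleavage system, rose by 0.33 (7.08 to 7.17 in stimulated rats against 6.56 to 6.93 in sham-operated rats). Without stimulated rat 5 the calls of Aldh5a1 (adjusted p = 0.0574) and Amd1 were lost, that of Amd1 also without sham rat 4 (0.0585 to 0.0588).

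Of 309 solute carriers 16 rose (5.18%, against 4.11% of all genes) and 4 fell (1.29%, against 2.45%). On no immune or astrocyte list were 15 of the 16, but these include Slc2a5, found in microglia. Slc25a18, a mitochondrial glutamate carrier, fell by 0.47, with 7.19 to 7.88 in stimulated rats and 7.87 to 8.19 in sham-operated rats, which just overlap. Slc14a1, a urea transporter of astrocytes, rose by 0.65 (8.44 to 8.86 in stimulated rats against 7.88 to 8.07 in sham-operated rats), and Slc15a3, a lysosomal peptide transporter, rose by 1.01. Slc20a1, a phosphate importer, and Slc7a5, an importer of large neutral amino acids, rose by 0.44 and 0.41.

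**Figure D4:**
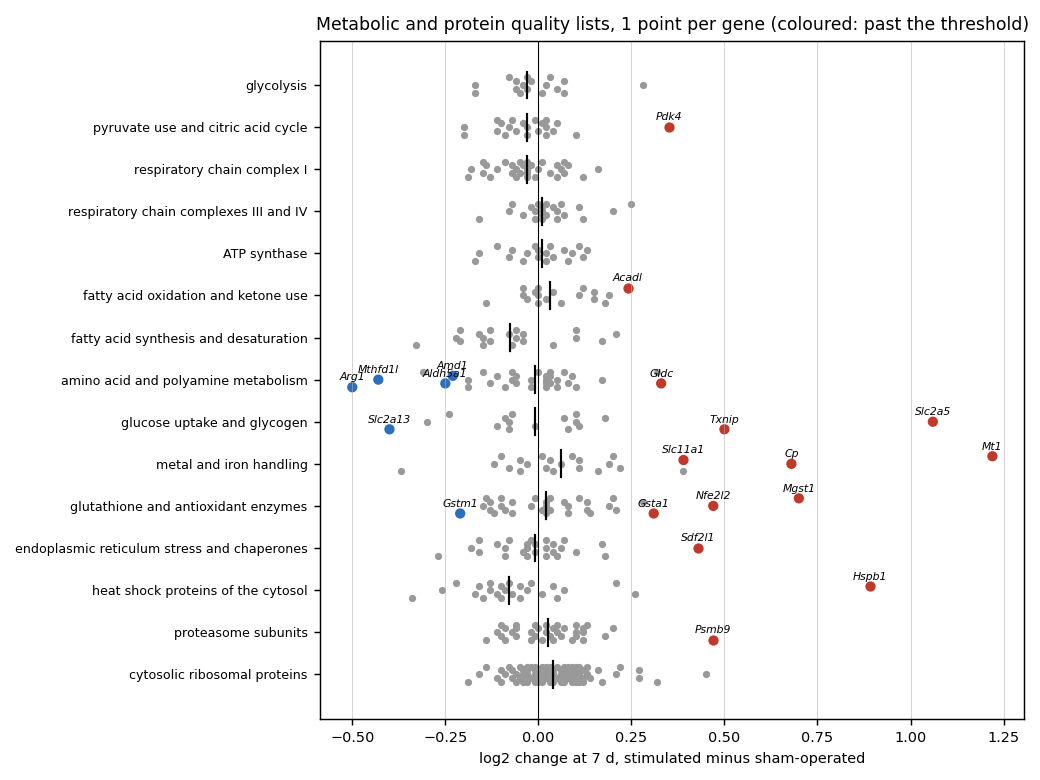
Change at 7 d on the log2 scale (x axis, stimulated minus sham-operated) of every measured gene of 15 metabolic and protein quality lists, 1 point per gene, with genes that rose in red, genes that fell in blue, the rest in grey and black lines at list medians. Mt1 (its probe set with the smaller p) and Slc2a5, at 1.06, lie farthest out, and the respiratory chain points stay between −0.19 and 0.25.

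Metal handling held the largest metabolic rise. Mt1, a metallothionein that binds zinc and copper (chr19:10831959-10832975, minus strand), had 10.28, 9.75, 9.68, 9.66 and 9.19 in stimulated rats, against 8.77, 8.64, 7.91, 8.39 and 8.71 in sham-operated rats. All stimulated rats lay above all sham-operated rats, with stimulated rat 5, the highest for microglial markers, the lowest of its group here. The rise was 1.23 ± 0.20 (adjusted p = 0.000783), and a second probe set named for Mt1 rose by nearly as much, but metallothionein genes are alike in sequence, so the 2 probe sets may share targets. Mt3, the metallothionein of zinc-rich neurons, which lies on the same chromosome (chr19:10854676-10856080), had a change of 0.22 with an adjusted p of 0.165, at 9.32 to 9.60 in stimulated rats and 9.11 to 9.52 in sham-operated rats. Of 23 measured genes of metal and iron handling 3 rose (13%, against 4.11% of all genes) and 0 fell (against 2.45%) with limma. At an unadjusted p under 0.05, 7 were higher and 0 lower, and the unmoderated test called 2 in all. The other rises were Cp, the copper ferroxidase ceruloplasmin, at 0.68, and Slc11a1, a metal exporter of phagosomes, at 0.39. The calls of Cp (without stimulated rat 5 or sham rat 5, adjusted p 0.0624 to 0.0636) and Slc11a1 (without sham rat 4, 0.0592) were lost.

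The promoters of Mt1 and Mt3 are printed because both Mt1 probe sets rose while Mt3 did not pass the test, and because metallothionein promoters are the textbook place of the metal response element. Each runs from 250 bases before to 50 after the RefSeq start in GRCr8, 5′ to 3′ on the minus strand, with capitals marking the core TGCACNC or TGCGCNC on either strand.
Mt1, chr19:10832926-10833225: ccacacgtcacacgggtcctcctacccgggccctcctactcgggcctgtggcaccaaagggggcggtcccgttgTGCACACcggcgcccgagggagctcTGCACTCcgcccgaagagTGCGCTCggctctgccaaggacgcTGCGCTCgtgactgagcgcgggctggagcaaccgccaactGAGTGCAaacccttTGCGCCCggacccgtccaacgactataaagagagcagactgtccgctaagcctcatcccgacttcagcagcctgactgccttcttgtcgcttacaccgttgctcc
Mt3, chr19:10856031-10856330: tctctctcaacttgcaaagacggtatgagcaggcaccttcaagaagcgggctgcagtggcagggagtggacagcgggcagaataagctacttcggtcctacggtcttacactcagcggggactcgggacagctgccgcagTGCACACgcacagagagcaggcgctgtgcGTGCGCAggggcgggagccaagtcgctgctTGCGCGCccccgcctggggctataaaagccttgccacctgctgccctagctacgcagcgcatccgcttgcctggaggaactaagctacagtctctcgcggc
Mt1 held 6 cores, 5 forward and 1 reverse, and Mt3 held 3, 2 forward and 1 reverse. Of 33469 promoters of this length, 24.2% held at least 1 core, 1.68% at least 3 and 0.0388% at least 6. A match is only these letters in the window and says nothing of binding.

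Genes that brake growth and division in stressed cells both fell and rose. Ddit4l, a stress-induced inhibitor of the growth kinase mTOR complex, had 5.60, 5.48, 5.13, 5.24 and 5.26 in stimulated rats, against 6.52, 6.35, 6.26, 6.66 and 6.27 in sham-operated rats. It fell by 1.07 ± 0.14 (adjusted p = 9.24e-05), without overlap. Gadd45a, a growth arrest gene, rose by 0.89, with 4.90 to 5.65 in stimulated rats against 4.29 to 4.75 in sham-operated rats. Rprm, the cell cycle arrest gene reprimo, rose by 0.94, with 5.85 to 6.76 in stimulated rats against 5.26 to 5.58 in sham-operated rats. Of 26 genes of apoptosis and the BCL2 family 3 rose (11.5%, against 4.11% of all genes) and 0 fell (against 2.45%) with limma. The unmoderated test called 2, and 10 were higher and 1 lower at an unadjusted p under 0.05. Casp4, an inflammatory caspase, rose by 0.87 (4.18 to 5.17 in stimulated rats against 3.69 to 4.08 in sham-operated rats), where 3.69 is the floor set on dim values. Among 33 genes of glutathione and antioxidant defence 3 rose (9.09%, against 4.11% of all genes) and 1 fell (3.03%, against 2.45%). Mgst1, a membrane glutathione transferase, rose by 0.70 and Nfe2l2, the factor NRF2, by 0.47. Gadd45a and Rprm were named after their values were seen.

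The largest rises off the immune and astrocyte lists still held genes known from macrophages and scars. Glipr2, a membrane protein of the Golgi (chr5:62966163-62998016), had 7.00, 7.40, 7.15, 6.43 and 8.0 in stimulated rats, against 5.47, 5.35, 5.59, 5.18 and 5.58 in sham-operated rats. It rose by 1.76 ± 0.25, and stimulated rats 5 and 4 were its highest and lowest, as in the microglial mean. Mmp9, a matrix-degrading protease, rose by 1.56 (5.59 to 6.51 in stimulated rats against 4.19 to 4.53 in sham-operated rats), and here stimulated rat 5 was not the highest. Lox, which crosslinks collagen and elastin, rose by 1.18 (5.88 to 6.26 in stimulated rats against 4.69 to 5.08 in sham-operated rats). It was on the list of meninges and fibroblasts, as was the matrix proteoglycan Bgn, which rose by 0.71 (7.54 to 8.38 in stimulated rats against 6.95 to 7.30 in sham-operated rats). Adgre1, the macrophage surface protein F4/80, rose by 1.02, with 6.44 in stimulated rat 5 against 5.57 to 5.77 in the other stimulated rats. The lysosomal genes Npc2 and Rnaset2 rose by 1.13 and 1.09, and Unc93b1, which carries Toll-like receptors, rose by 1.03, all highest in stimulated rat 5. S100a3, Slfn9 and Tmem176a rose by 1.49, 1.43 and 1.13. Nptx2, a secreted pentraxin of excitatory synapses named after its values were seen, rose by 0.71 (8.01 to 8.28 in stimulated rats against 7.30 to 7.75 in sham-operated rats).

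The 24 deepest falls were set beside 30 d. The rats at 30 d are other animals with sham-operated controls of their own. The set was chosen by size at 7 d, so smaller values at 30 d are partly set by that choice. All 24 had a negative change at 30 d and 20 were called there, where 0.899% of all probe sets fell. Their median was −0.84 at 7 d and −0.68 at 30 d. Of all 389 probe sets that fell at 7 d, 364 had a negative change at 30 d and 104 were called lower there. Of the 635 that rose, 610 had a positive change at 30 d and 105 were called higher. Both tests used 1 shared estimate of spread, so the calls at 7 d and 30 d are not independent. Atp2b4, Epha8 and Myo5b had changes of −1.16, −1.08 and −0.85 at 7 d and −1.09, −0.97 and −0.93 at 30 d. The 16 probe sets of the largest rises, 15 genes with the Mt1 pair, had medians of 1.18 and 0.84, and all 16 were smaller at 30 d, where 9 were called (0.835% of all probe sets rose at 30 d). Mt1 was called at 7 d only, with 1.23 at 7 d and 0.40 at 30 d. limma's test of the change at 30 d minus that at 7 d passed an adjusted p of 0.05 in 0 of 15800 probe sets (0 also with unmoderated statistics), the smallest being 0.399, where 682 (4.32%) had an unadjusted p under 0.05. Differences between the times in single genes are therefore descriptions. Genes with a small change at 30 d included Cdh4 (0.36 at 7 d, −0.03 at 30 d), Htr1a (−0.54 at 7 d, −0.13 at 30 d) and Nr3c1 (−0.35 at 7 d, 0.02 at 30 d).

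**Figure D5:**
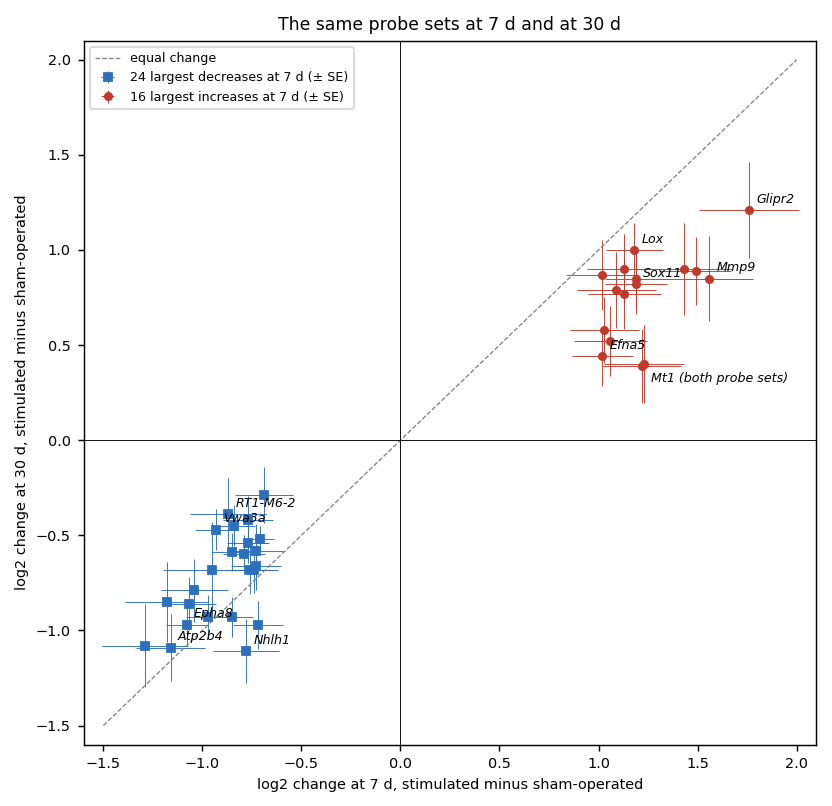
Change at 7 d (x axis) against change at 30 d (y axis), both in log2 units and each against its own sham-operated group, for the 24 deepest falls (blue squares) and the 16 largest rises (red circles) of 7 d, with standard errors as bars and a dashed line of equal change. Points above the line at lower left and below it at upper right are smaller at 30 d, which holds for 21 of the 24 and all 16.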

How the data were processed

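The authors deposited log2 intensities normalized by RMA (the submitters' processing notes name oligo 1.22.0), 1 value per probe set and array, and these were used as deposited. Of 29214 probe sets, 18644 carried 1 gene symbol, 962 several and 9608 none, and 99.0% of the first kind matched GRCr8 by gene identifier. Values under 3.69, the 20th percentile of all, were set to it. Probe sets at that floor on over 5 of the 20 arrays were left out. limma 3.58.1 (R 4.3.3) fitted the 4 groups of 5 rats together, with empirical Bayes moderation and Benjamini-Hochberg adjustment over 15800 probe sets, and was tested on simulated data. A gene with several probe sets was counted by the one with the highest mean over all arrays. Tables were made in python 3.11.15 with pandas 2.3.3. Named were the 24 deepest falls and the 16 largest rises off the immune and astrocyte lists, among called probe sets without overlap between groups, up to 4 called members of each process list by smallest p, and bright markers of each cell type. Arc, Nr4a3, Phka2, Serinc2, Rprm, Gadd45a, Calb1, Mt3, Ust, Gabrd, Kcnh5, Nptx2, Wfs1, Cckbr, Sstr4, Cdh12, Camk4, Rasgrf2, Slc25a18, Slc7a5, Dsp and Amd1 were named after their values were seen. The lists and the rule were chosen with earlier results of these data known. 1 gene list is not reported here. Promoters came from RefSeq. Alternatives were centring, quantile normalization, other filters, array weights, a trend with robust moderation, unmoderated statistics, the 7 d arrays alone, averaged probe sets, a replicate block and leaving out rats.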

Additional observations from a re-analysis of the deposited data

Results flagged for a closer look

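Single rats stood apart within their group in 9 of the 270 gene and group pairs examined, counting a lowest or highest rat whose gap to the next exceeded 0.71 of the group's range. Chance gives about 1 in 20 groups of this size. Stimulated rat 5, the array with the highest microglial mean, held 5 of them. It was lowest for Rasd2 at 5.80 where the next stimulated rat had 6.14 and for C1ql2 at 8.81 (next 9.61), and highest for Adgre1 at 6.44 (next 5.77), for Prkcd at 6.36 (next 5.67) and for Bhlhe41 at 8.58 (next 8.22). Of these genes C1ql2 was not called, and the others kept their call without that rat. Over all genes that the selection rule gave, also those not named here, 17 of 422 pairs stood apart, 7 of them in stimulated rat 5. Among sham-operated rats, rat 3 was lowest for Lingo2 at 7.40 (next 7.89) and highest for Gadd45a at 4.75 (next 4.41). Sham rat 2 was lowest for Rgs8 at 7.94 (next 8.09), and sham rat 4 was highest for Igfbp5 at 8.46 (next 8.22). The part of dissection, microglial content and array quality in these values was not tested.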

How the results depend on the processing

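The counts of probe sets that rose and fell at 7 d were 635 and 389, and with single rats left out they ranged from 443 to 733 and from 242 to 524. Both lowest counts came without stimulated rat 5, and only there did a count move by more than 1.5 times. Centring each array on its median gave 503 and 576, array weights 698 and 474, and no filter on dim values 507 and 316. With the 7 d arrays alone the counts were 483 and 263, with unmoderated statistics 495 and 309, and without both stimulated rat 5 and sham rat 3 471 and 288. The difference between 30 d and 7 d was called in 0 probe sets, in 2 with array weights and in 1 without sham rat 3, and the range over single rats left out was 0 to 1. With the replicate number as a block 525 probe sets rose and 281 fell, but the numbers do not pair the rats: deviations of rats with the same number correlated between −0.49 and 0.11. Of the 131 called genes named, 109 kept their call without each rat in turn, 18 lost it without stimulated rat 5, and 0 changed sign in any of the 21 settings. The change of C1ql2, which was not called, was −0.14, ranged from −0.19 to 0.03 with single rats left out, and was above 0 only without stimulated rat 5. Counts in lists are less stable, and 40 of the 58 counts above 0 in process lists moved by more than 1.5 times without some rat, 24 of them without stimulated rat 5. The falls of the clock and glucocorticoid list ranged from 2 to 4 and were 1 without both rats named above, those of the receptors from 2 to 6, those of the cyclic nucleotide list from 1 to 7, the rises among solute carriers from 10 to 17, those of BMP and activin signalling from 2 to 4 and those of the apoptosis list from 1 to 4. With 5 rats a group and levels near background for the dim genes, a change that missed the threshold is not shown to be absent.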

Other observations

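Phosphoinositide enzymes moved in both directions. Of 35 measured enzymes of phospholipids, sphingolipids and phosphoinositides 3 rose (8.57%, against 4.11% of all genes) and 1 fell (2.86%, against 2.45%). Pip5k1b, a kinase that makes phosphatidylinositol bisphosphate, fell by 0.39, with 6.85 to 7.37 in stimulated rats against 7.48 to 7.70 in sham-operated rats. Pik3cg and Inpp5d, a lipid kinase and a lipid phosphatase best known from leukocytes, rose by 0.80 and 0.72, both highest in stimulated rat 5 (6.20 and 6.55), as was the mean of the microglial markers. Of 31 genes of SOCS, STAT and NF-kappaB signalling 4 rose (12.9%) and 0 fell with limma, with 14 higher and 1 lower at an unadjusted p under 0.05 and 3 called by the unmoderated test. Stat3, a factor activated by cytokines, rose by 0.33 (7.57 to 7.84 in stimulated rats against 7.25 to 7.42 in sham-operated rats), and Nfkbiz, an inhibitor-like regulator of NF-kappaB, rose by 0.28 (5.10 to 5.41 in stimulated rats against 4.86 to 5.05 in sham-operated rats).

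Of 211 ubiquitin ligases 6 fell (2.84%, against 2.45% of all genes) and 5 rose (2.37%, against 4.11%). Klhl14, a BTB-Kelch protein, fell by 0.36, with 4.90 to 5.12 in stimulated rats against 5.31 to 5.40 in sham-operated rats. Trim5, known as a restriction factor for retroviruses in primates, rose by 0.38 (6.16 to 6.52 in stimulated rats against 5.89 to 6.10 in sham-operated rats). Among the zinc finger genes Zfp365 fell by 0.44, with 7.47 to 7.93 in stimulated rats and 8.08 to 8.34 in sham-operated rats. Among 25 postsynaptic scaffolds 1 rose and 1 fell (4% each, against 4.11% and 2.45% of all genes). Tanc1 rose by 0.34, with 8.77 to 8.99 in stimulated rats against 8.45 to 8.60 in sham-operated rats.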
